A study of Mus musculus with 12 samples.

Results

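NF-κB, the dimeric transcription factor of inflammatory signaling, was followed at the level of its own mRNAs through 10 genes: the subunits Rela, Nfkb1, Relb and Nfkb2, the inhibitors Nfkbia, Nfkbie and Tnfaip3, the cofactor Bcl3, and the kinases Chuk and Ikbkb. The members were taken by gene symbol from a table of 53465 genes, each symbol matched 1 gene, and 10 of 10 were among the 16101 genes with enough counts to be tested. RNA came from the hearts of 12 mice, with 1 library per mouse and 3 mice in each of 4 groups. Both genotypes were of the C57BL/6J background, and every mouse carried the floxed Adam17 alleles. A17fl/fl mice had no Cre, and their A17α-MHCKO littermates also carried Cre under the α-MHC promoter, so that exon 2 of Adam17, which encodes the sheddase that releases TNF-α, was removed in cardiomyocytes while the other cells of the heart kept the gene. Male mice 8 weeks old were given the anthracycline doxorubicin (DOX), which damages the heart, or normal saline (NS), in the case of DOX as 4 intraperitoneal injections of 5 mg/kg (20 mg/kg in all), with the endpoint 4 weeks after the last of them.

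In resting cells NF-κB dimers are held in the cytoplasm by IκB proteins. In the canonical arm, TNF-α, interleukin-1 or Toll-like receptors activate the kinase IKKβ (Ikbkb), IκBα (Nfkbia) is degraded, and RelA-p50 (Rela, Nfkb1) enters the nucleus, where it also raises transcription of its own inhibitors. In the noncanonical arm, receptors such as the lymphotoxin-β receptor stabilize the kinase NIK (Map3k14), IKKα (Chuk) is activated, and the p100 product of Nfkb2 is processed to p52, the partner of RelB. Both arms are controlled largely by phosphorylation, degradation and nuclear entry, none of which mRNA counts record. For the comparison of arms, Rela, Nfkb1, Ikbkb, Nfkbia, Nfkbie and Tnfaip3 were the canonical arm, Relb, Nfkb2 and Chuk the noncanonical arm, and Bcl3 was in neither.

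The feedback of NF-κB on its own genes runs through κB sites, so the RefSeq promoter windows of the members (build GRCm38.p6, 250 bases before to 50 bases after the gene start) were searched on both strands for the 10-base κB consensus. A window was at hand for 7 members, all but Relb, Nfkb1 and Ikbkb. The letters of the consensus occurred in the windows of 5 of these 7, namely Tnfaip3, Nfkbia, Nfkbie, Nfkb2 and Bcl3, against 9.55% of the 27025 genes that have a window. Counted by window, 7 of the members' 10 windows held a match, against 8.46% of all 32851 windows, but windows of the same gene can overlap. No match stood in the windows of Rela and Chuk. The following stretches show the match in capitals with up to 25 bases on each side, read 5′ to 3′ on the strand of the gene; they end before the gene start and are shown because they belong to 4 of the 5 members whose levels differed most between hearts.
Nfkbia: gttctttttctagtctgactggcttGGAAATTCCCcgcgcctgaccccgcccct
Tnfaip3, distal: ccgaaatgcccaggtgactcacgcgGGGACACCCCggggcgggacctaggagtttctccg
Tnfaip3, proximal: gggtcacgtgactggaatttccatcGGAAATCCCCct
Nfkbie: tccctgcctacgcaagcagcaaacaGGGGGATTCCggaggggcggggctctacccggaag
Nfkb2: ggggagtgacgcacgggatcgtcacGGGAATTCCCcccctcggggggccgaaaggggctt
The stretch of Nfkbia lies at chr12:55492648-55492701 on the minus strand, and its match begins at -29 from the gene start. Those of Tnfaip3 lie at chr10:19015501-19015560 and chr10:19015411-19015447 on the minus strand, with matches at -125 and -12. That of Nfkbie lies at chr17:45555569-45555628 on the plus strand (match at -106) and that of Nfkb2 at chr19:46304673-46304732 on the plus strand (match at -39). The match of Nfkb2 overlaps another that begins at -38, and the same window holds one more at -11, while the match of Bcl3 lies after the gene start. Nfkb2 has further windows at other starts, with matches at -236 and 10 in the first and at -225 in the second. These further windows overlap each other, and the match at 10 and that at -225 are the same bases. Tnfaip3 has another window without a match. A match of letters is not evidence that a factor was bound there.

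Total counts per library lay between 15950717 and 21725076, and single members rested on 35 to 4609 counts in a library. Levels are given as CPM, the count of a gene relative to the TMM-scaled total count of its library, and, where genes are compared with one another, as FPKM, which also divides by gene length. Adam17 itself was counted over the whole gene and in every cell type of the heart. It lay between 43.6 and 70.9 CPM in the 6 A17fl/fl hearts and between 27.9 and 36.8 CPM in the 6 A17α-MHCKO hearts, without overlap. Cardiomyocyte markers were the most abundant of the marker lists in each library. The A17fl/fl + NS replicate 1 library stood apart from the rest. Its mean correlation with the other 11 libraries over tested genes was 0.900, whereas those of the others were 0.948 to 0.966. Its 12 neutrophil markers summed to 2548 CPM against 10.3 to 76.7 in the other libraries (11 of 12 were highest there; S100a9 was at 910 CPM), and its 12 macrophage markers to 1901 against 574 to 775 CPM, with 11 of 12 highest there. Its 8 fibroblast markers summed to 8655 against 1414 to 3052 CPM, but only 4 of 8 were highest there, among them Col3a1 at 3801 CPM, whereas Dcn, at 959 CPM, lay within the range of the others. Its 10 immediate-early genes summed to 866 against 216 to 349 CPM, and its 10 cardiomyocyte markers to 17012 against 32119 to 45297 CPM. Its 10 T and NK cell markers summed to a low 2.25 against 4.91 to 16.5 CPM, and 4 of them had 0 counts. The sums of its 10 endothelial markers and of its 6 B cell markers lay within the range of the others. Of these, 2 endothelial markers were highest there and 2 B cell markers had 0 counts. In bulk tissue a change in the number of cells of a type and a change in RNA per cell cannot be told apart. The main results of edgeR's fit are therefore given with and without this library, which also enters the spread that the fit shares between all groups. DESeq2 counts are with all 12 libraries, and a gene for which it set no adjusted p counts as not called.

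NF-κB members were highest in that same library. It held the highest of the 12 values for 9 of 10 members, Chuk being second, while 26.1% of all tested genes had their highest value there. The excess was graded by role. Against the median of the other 11 libraries, the inhibitors and the cofactor were furthest above, with 18.8 times for Tnfaip3, 6.53 for Bcl3, 6.07 for Nfkbie and 3.71 for Nfkbia. The subunits followed with 2.30 times for Nfkb2, 1.89 for Relb, 1.77 for Nfkb1 and 1.47 for Rela, and the kinases came last with 1.43 for Ikbkb and 1.12 for Chuk. Tnfaip3 in this library exceeded 99.6% of tested genes by this ratio, and Chuk 60.6%. The 5 members with a κB consensus match in the window had ratios between 2.30 and 18.8, and Rela and Chuk, without one, had 1.47 and 1.12. Relb, Nfkb1 and Ikbkb, for which no window was at hand, had 1.89, 1.77 and 1.43. Whether the matches bear on these ratios was not tested. How far the neutrophil, macrophage and immediate-early signals of the library account for these values was not tested.

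**Figure D1:**
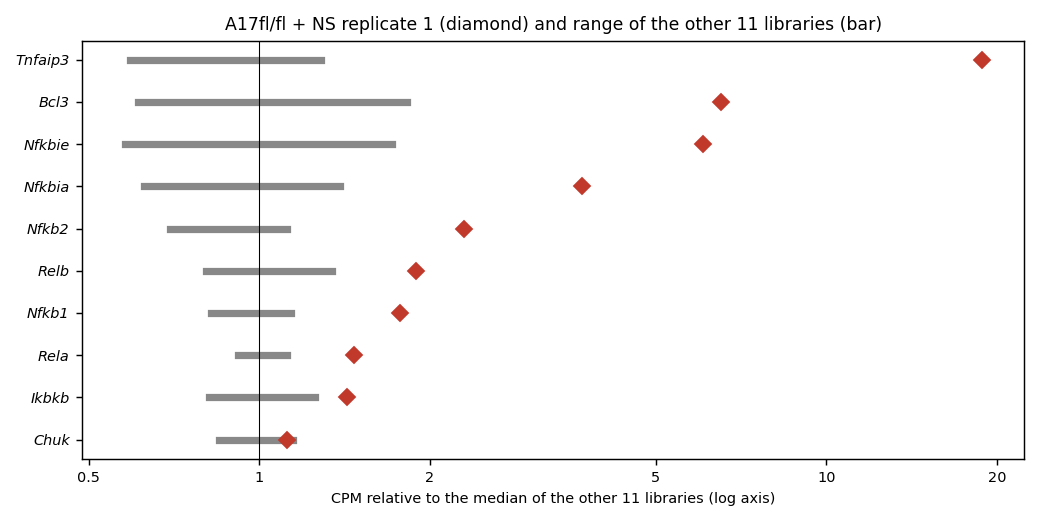
For each member, the CPM of A17fl/fl + NS replicate 1 (diamond) and the range of the other 11 libraries (bar) are drawn relative to the median of those 11, on a log axis. The diamond lies to the right of the bar for 9 members, from 1.43 times the median for Ikbkb to 18.8 times for Tnfaip3, and within the bar for Chuk.

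Rela (ENSMUSG00000024927), the main activating subunit of the canonical arm, was the steadiest member, with a coefficient of variation of 5.26% over the 11 other libraries. It measured 77.9, 54.4 and 59.3 CPM in A17fl/fl + NS, 54.5, 53.4 and 48.6 CPM in A17fl/fl + DOX, 51.5, 53.0 and 52.5 CPM in A17α-MHCKO + NS and 51.4, 55.8 and 51.2 CPM in A17α-MHCKO + DOX hearts (replicates 1 to 3 throughout). Outside A17fl/fl + NS, all 9 values lay between 48.6 and 55.8 CPM. The 3 A17α-MHCKO + NS hearts were all below the 3 A17fl/fl + NS hearts, by 0.29 on the log2 scale (SE 0.14, unadjusted p = 0.0615 in edgeR's quasi-likelihood test over all genes), and by 0.12 (SE 0.11) without replicate 1.

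Nfkb1 (ENSMUSG00000028163), whose p105 product yields p50, had fold changes of opposite sign with and without the replicate 1 library. It measured 96.6, 47.2 and 45.5 CPM in A17fl/fl + NS, 62.2, 56.9 and 56.0 CPM in A17fl/fl + DOX, 54.6, 59.4 and 53.1 CPM in A17α-MHCKO + NS and 44.9, 52.3 and 57.5 CPM in A17α-MHCKO + DOX hearts. The first saline heart was the highest of the 12, and its 2 fellow saline hearts of this genotype were below all 3 A17fl/fl + DOX and all 3 A17α-MHCKO + NS hearts. With all libraries, the log2 fold change after DOX in A17fl/fl mice was -0.11 (SE 0.25, unadjusted p = 0.658 by edgeR). Without replicate 1 it was 0.33 (SE 0.13, unadjusted p = 0.0235, adjusted p = 0.413 over all genes), and the difference between the genotypes in their response to DOX was -0.44 (SE 0.17, unadjusted p = 0.0230, adjusted p = 0.649, edgeR).

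Relb (ENSMUSG00000002983), the noncanonical partner of p52, measured 21.9, 12.98 and 11.1 CPM in A17fl/fl + NS, 11.8, 11.6 and 10.01 CPM in A17fl/fl + DOX, 9.32, 15.5 and 11.6 CPM in A17α-MHCKO + NS and 10.8, 10.01 and 12.3 CPM in A17α-MHCKO + DOX hearts. Apart from the first saline heart, the groups overlapped. Its log2 fold change after DOX in A17fl/fl mice was -0.46 (SE 0.26) with all libraries and -0.11 (SE 0.21) without replicate 1, and in A17α-MHCKO mice -0.14 (SE 0.26).

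Nfkb2 (ENSMUSG00000025225), which encodes p100, the precursor of p52 and itself an inhibitor, measured 69.1, 32.1 and 31.3 CPM in A17fl/fl + NS, 32.3, 28.4 and 27.7 CPM in A17fl/fl + DOX, 30.6, 30.1 and 25.6 CPM in A17α-MHCKO + NS and 20.9, 33.6 and 29.4 CPM in A17α-MHCKO + DOX hearts. The 3 A17α-MHCKO + NS hearts lay below the 3 A17fl/fl + NS hearts. The log2 difference was -0.62 (SE 0.28, unadjusted p = 0.0501, adjusted p = 0.492 by edgeR), and -0.14 (SE 0.18) without replicate 1. The lowest of the 12 values came from an A17α-MHCKO + DOX heart and the second highest from another heart of that group.

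Taken as a ratio within each library, Nfkb2 to Nfkb1 separated the A17fl/fl + NS hearts from the rest, replicate 1 included. On the FPKM scale the ratio was 3.43, 3.26 and 3.30 in A17fl/fl + NS, 2.49, 2.40 and 2.37 in A17fl/fl + DOX, 2.68, 2.43 and 2.31 in A17α-MHCKO + NS and 2.23, 3.08 and 2.45 in A17α-MHCKO + DOX hearts. All 3 A17fl/fl + NS values were above the 9 others, and their mean of 3.33 ± 0.0903 (SD, n = 3) compared with 2.42 ± 0.0632 (SD, n = 3) after DOX in the same genotype and with 2.47 ± 0.190 (SD, n = 3) in A17α-MHCKO + NS hearts. Both differences had p = 0.1 in a two-sided exact permutation test, the smallest that 3 hearts against 3 allow, and share the same saline hearts. This ratio was 1 of 6 pairs chosen after the counts had been seen, the other 22 of 24 comparisons overlapped, and the adjusted p over the 24 exact tests was 1.0.

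**Figure D2:**
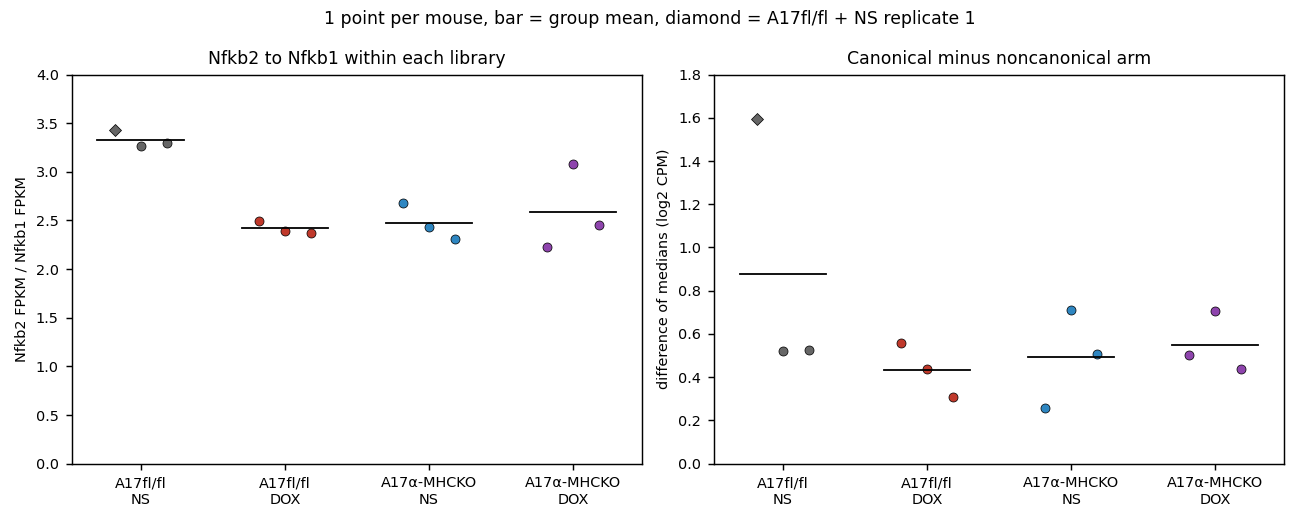
Left, Nfkb2 FPKM divided by Nfkb1 FPKM in each mouse by group; right, the median log2 CPM of the canonical arm members minus that of the noncanonical arm members. Points are mice, bars are group means, and the diamond is A17fl/fl + NS replicate 1: its ratio of 3.43 is close to those of its group (3.26 and 3.30), while its arm difference of 1.59 is far above the 0.26 to 0.71 of the other 11 libraries. The arm difference rests on the members of middle level, which are not the same genes in replicate 1 as in the other libraries.

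Nfkbia (ENSMUSG00000021025), which encodes IκBα and is itself a rapid NF-κB target, was the most abundant member per length. It measured 266, 99.7 and 64.7 CPM in A17fl/fl + NS, 73.3, 67.2 and 45.0 CPM in A17fl/fl + DOX, 90.1, 71.8 and 58.2 CPM in A17α-MHCKO + NS and 97.3, 77.1 and 61.0 CPM in A17α-MHCKO + DOX hearts. The values of every pair of groups overlapped. Its log2 fold change after DOX in A17fl/fl mice was -1.21 (SE 0.43, unadjusted p = 0.0170, adjusted p = 0.414 by edgeR), and the value without replicate 1 was -0.41 (SE 0.27, unadjusted p = 0.155). Between the genotypes after DOX its log2 difference was 0.34 (SE 0.43).

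Nfkbie (ENSMUSG00000023947), encoding IκBε, was low in all hearts but 1. It measured 21.3, 2.69 and 4.51 CPM in A17fl/fl + NS, 4.02, 3.82 and 2.80 CPM in A17fl/fl + DOX, 2.65, 6.003 and 2.03 CPM in A17α-MHCKO + NS and 2.83, 3.51 and 3.70 CPM in A17α-MHCKO + DOX hearts. It varied most of all members over the 11 other libraries, with a coefficient of variation of 31.4%, and apart from the first saline heart its groups overlapped. Its log2 fold change after DOX in A17fl/fl mice was -1.42 (SE 0.66, unadjusted p = 0.0521, edgeR) with all libraries and -0.03 (SE 0.42) without replicate 1.

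Tnfaip3 (ENSMUSG00000019850), which encodes the ubiquitin-editing enzyme A20 that ends TNF signaling, had the widest contrast between 1 heart and the rest. It measured 134, 7.48 and 8.77 CPM in A17fl/fl + NS, 8.55, 4.55 and 5.90 CPM in A17fl/fl + DOX, 8.40, 7.13 and 5.64 CPM in A17α-MHCKO + NS and 4.22, 6.04 and 9.17 CPM in A17α-MHCKO + DOX hearts. Outside the first saline heart, all 11 values lay between 4.22 and 9.17 CPM, and the groups overlapped. The log2 fold change after DOX in A17fl/fl mice was -2.98 (SE 0.93, unadjusted p = 0.00794, adjusted p = 0.365 by edgeR) and became -0.36 (SE 0.33, unadjusted p = 0.295) without that heart. Between the genotypes after saline it was -2.83 (SE 0.92, unadjusted p = 0.0101), and -0.21 (SE 0.33, unadjusted p = 0.542) without it, again by edgeR.

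Bcl3 (ENSMUSG00000053175), an IκB-like protein of the nucleus that joins p50 or p52 homodimers at DNA, was lower in A17α-MHCKO + NS hearts at an unadjusted p under 0.05 both with and without that library. It measured 49.5, 8.56 and 13.8 CPM in A17fl/fl + NS, 7.17, 10.8 and 7.58 CPM in A17fl/fl + DOX, 4.63, 6.87 and 7.61 CPM in A17α-MHCKO + NS and 7.11, 5.98 and 7.77 CPM in A17α-MHCKO + DOX hearts. The 3 A17fl/fl + NS hearts were all above the 6 A17α-MHCKO hearts, and the gap between the lowest of them (8.56 CPM) and the highest A17α-MHCKO + NS heart (7.61 CPM) was narrow. The log2 difference between the genotypes after saline was -1.91 (SE 0.53, unadjusted p = 0.00378, adjusted p = 0.316, edgeR) and without replicate 1 was -0.81 (SE 0.27, unadjusted p = 0.0129, adjusted p = 0.348). DESeq2 with all libraries put its adjusted p at 0.0261, in a comparison where it put 174 genes under 0.05.

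Chuk (ENSMUSG00000025199), the kinase IKKα, measured 28.7, 23.4 and 24.997 CPM in A17fl/fl + NS, 26.0, 25.9 and 25.6 CPM in A17fl/fl + DOX, 28.0, 21.8 and 29.3 CPM in A17α-MHCKO + NS and 25.6, 24.2 and 27.5 CPM in A17α-MHCKO + DOX hearts. The 4 groups overlapped, and its fitted log2 differences between groups were between -0.03 and 0.03 with standard errors of 0.14. Without replicate 1 those that use A17fl/fl + NS were 0.09 after DOX in A17fl/fl mice and 0.12 between the genotypes after saline, with an SE of 0.14 each. Ikbkb (ENSMUSG00000031537), the kinase IKKβ, measured 34.4, 23.9 and 28.5 CPM in A17fl/fl + NS, 27.0, 23.0 and 22.4 CPM in A17fl/fl + DOX, 21.8, 24.1 and 25.2 CPM in A17α-MHCKO + NS and 19.6, 30.1 and 27.3 CPM in A17α-MHCKO + DOX hearts. Its groups overlapped as well, with log2 differences of -0.26 (SE 0.18) after DOX in A17fl/fl mice, or -0.12 (SE 0.18) without replicate 1, and of 0.11 (SE 0.18) in A17α-MHCKO mice.

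**Figure D3:**
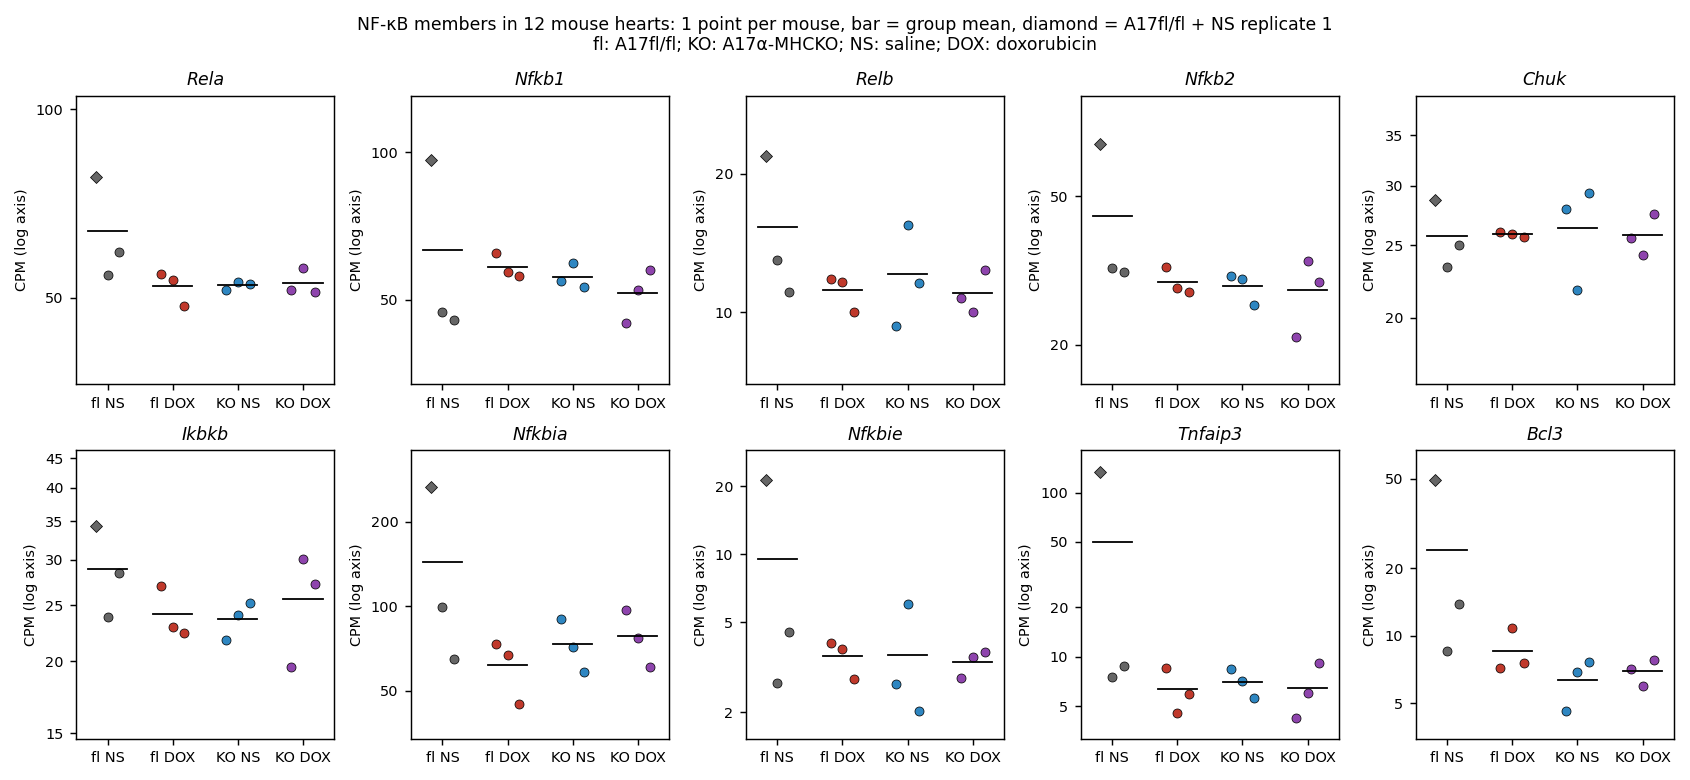
CPM of each member in the 12 mice on a log axis that differs between panels, with 1 point per mouse, a bar at the group mean and a diamond for A17fl/fl + NS replicate 1. The diamond is the highest point in 9 panels, by the widest margin for Tnfaip3 (134 CPM against 9.17 CPM or less), and the other points of the 4 groups largely overlap.

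Compared per length over the 11 other libraries, the members fell into an order that was only partly resolved. Nfkbia had the highest median level, 36.8 FPKM, followed by Rela with 19.8 and Nfkb2 with 8.60 FPKM, and the ranges of these genes did not overlap with each other or with the next. Nfkb1 (3.47 FPKM), Chuk (3.10), Bcl3 (2.21), Relb (1.95), Nfkbie (1.40) and Ikbkb (1.05 FPKM) formed a run in which the ranges of each gene and the next overlapped. Tnfaip3 was lowest with 0.537 FPKM, below Ikbkb in 11 of 11 libraries. In the replicate 1 library Tnfaip3 was at 10.1 FPKM and Nfkbia at 142 FPKM, while Chuk was at 3.65 FPKM.

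After DOX in A17fl/fl hearts, the members had a median log2 fold change of -0.52, beside -0.04 for all tested genes. Nfkbia, Tnfaip3 and Bcl3 had an unadjusted p under 0.05, all lower after DOX, or 3 of 10 members where 10.7% of all tested genes passed. By edgeR 0 of 10 members and 0% of all tested genes had an adjusted p under 0.05. DESeq2 gave an unadjusted p under 0.05 to 4 members, beside 1816 of all genes. It gave an adjusted one to 0 members and to 151 genes in all, and it set none for Tnfaip3. Without replicate 1 the members' median was -0.12, and only Nfkb1 passed the unadjusted threshold, upwards, where 10.2% of tested genes did and 0% passed after adjustment. No member separated the 3 DOX from the 3 saline hearts, although 13.3% of tested genes did.

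In A17α-MHCKO hearts the members' log2 fold changes after DOX ran from -0.14 (Relb) to 0.13 (Bcl3) with a median of -0.04, beside 0.00 for all tested genes. By edgeR 0 of 10 members had an unadjusted p under 0.05 where 6.42% of tested genes did, and 0 of 10, and 0% of tested genes, an adjusted one. DESeq2 likewise gave 0 and 0 for the members, with 1 member left without an adjusted p, beside 1136 unadjusted and 41 adjusted calls over all genes. The standard errors ran from 0.14 for Chuk and Rela to 0.89 for Tnfaip3. Leaving A17fl/fl + NS replicate 1 out of the shared estimate of spread lowered them, to 0.30 for Tnfaip3, 0.37 for Nfkbie and 0.11 for Nfkb1, and by edgeR 0 members still passed either threshold, where 11.5% of tested genes passed the unadjusted and 0.0061% the adjusted one. No member was free of overlap, against 16.9% of tested genes.

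Between the genotypes after saline, the same A17fl/fl + NS hearts served as the reference as in the comparison of DOX in A17fl/fl mice, so these values are not independent of those above. The members' median log2 difference was -0.48, beside -0.03 for all tested genes. Nfkbia, Tnfaip3 and Bcl3 again had an unadjusted p under 0.05, 3 of 10 against 10.1% of tested genes, and 0 of 10 an adjusted one by edgeR, against 0.0186%. DESeq2 gave 5 members an unadjusted and 1, Bcl3, an adjusted p under 0.05, beside 1705 and 174 of all genes. It left 1 member without an adjusted p. Rela, Nfkb2 and Bcl3 were lower in all 3 A17α-MHCKO + NS hearts without overlap, 3 of 10 members against 10.9% of tested genes, each with p = 0.1 in the exact permutation test. Without replicate 1 the median was -0.13 and Bcl3 was the 1 member past the unadjusted threshold, where 10.2% of tested genes were, and 0.067% passed after adjustment.

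After DOX, the members' log2 differences between the genotypes ran from -0.29 (Bcl3) to 0.34 (Nfkbia), with a median of -0.01 beside 0.01 for all tested genes. By edgeR 0 of 10 members had an unadjusted p under 0.05 against 2.7% of tested genes, and 0 an adjusted one against 0.00621%. DESeq2 gave 0 and 0 as well, beside 483 and 3 of all genes, with 1 member left without an adjusted p. With replicate 1 of A17fl/fl + NS left out of the fit, 0 members passed by edgeR, against 5.85% of tested genes unadjusted and 0.0122% adjusted. All members overlapped between the groups, against 14.1% of tested genes that did not. For the interaction, the difference between the genotypes in their response to DOX, the members' median was 0.46 beside 0.06 for all genes. Tnfaip3 (2.86, SE 1.27, unadjusted p = 0.0445 by edgeR) and Bcl3 (1.61, SE 0.73, unadjusted p = 0.0490) were past the unadjusted threshold, against 5.99% of tested genes, and by edgeR 0 of 10 members and 0% of tested genes after adjustment. Without replicate 1 the median was 0.10, Nfkb1 alone passed, in the negative direction, against 7.13% of tested genes, and 0% passed after adjustment. DESeq2 gave 2 members an unadjusted and 0 an adjusted p under 0.05 with all libraries, beside 1032 and 21 of all genes. It left 1 member without an adjusted p.

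**Figure D4:**
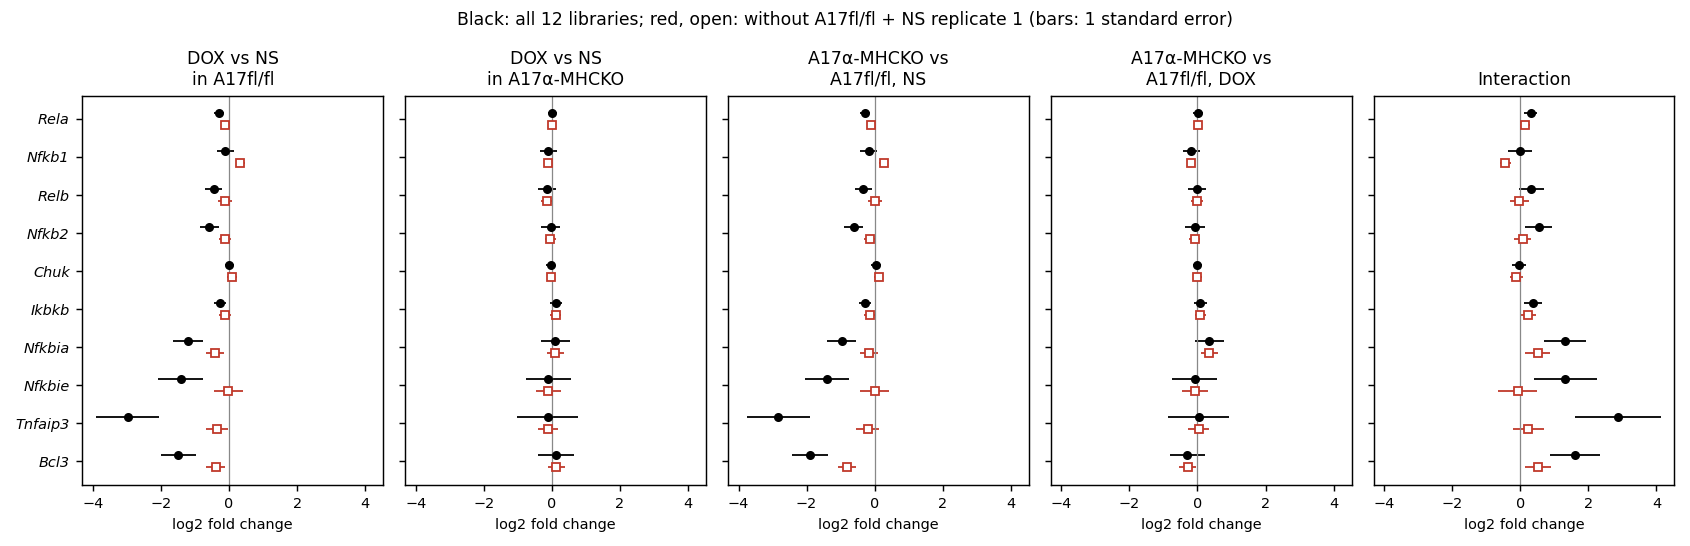
Log2 fold change of each member in 5 comparisons with 1 standard error, with all 12 libraries (black) and without A17fl/fl + NS replicate 1 (red, open). The black points of Tnfaip3 lie at -2.98 after DOX in A17fl/fl mice and at -2.83 between the genotypes after saline, the red ones at -0.36 and -0.21, and in the panels that do not use the A17fl/fl + NS group both points nearly coincide and the red error bars are the shorter ones.

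The canonical and the noncanonical arm were set against each other within each library, as the difference of their median log2 CPM. Such a median is set by the members of middle level and not by the arm as a whole. In A17fl/fl + NS replicate 1 these were Rela (77.9 CPM) and Nfkb1 (96.6 CPM), with Chuk (28.7 CPM) for the noncanonical arm, as Tnfaip3 rose above the middle. In the other 11 libraries Ikbkb was among the middle canonical members. The difference was 1.59 in A17fl/fl + NS replicate 1 and 0.52 in both other hearts of that group, between 0.31 and 0.56 in A17fl/fl + DOX, between 0.26 and 0.71 in A17α-MHCKO + NS and between 0.44 and 0.71 in A17α-MHCKO + DOX hearts. Apart from replicate 1 the groups overlapped. On the scale of fold changes, the canonical median minus the noncanonical median was -0.30 after DOX in A17fl/fl mice (-0.02 without replicate 1), -0.00 in A17α-MHCKO mice, -0.29 between the genotypes after saline (-0.15 without it) and 0.04 after DOX. For the interaction it was 0.52, and 0.21 without replicate 1. The SD of the per-library difference within groups was 0.34 with all libraries and 0.16 over the 11 without replicate 1. All 6 canonical members had a negative log2 fold change after DOX in A17fl/fl mice, and 5 of 6 without replicate 1 as Nfkb1 changed sign, while of the noncanonical members Relb and Nfkb2 had a negative one and Chuk was at 0.01.

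How alike the members were across hearts also depended on 1 library. Over 12 libraries the 45 pairs of members had a median Pearson r of 0.76 on the log2 CPM scale, with 35 pairs above 0.5. Over the 11 without replicate 1 the median was 0.15, and 5 pairs were above 0.5. Both are descriptions across hearts of 4 groups. The gene most like Tnfaip3 over 12 libraries was Birc3, a ubiquitin ligase of the TNF receptor complex (r = 0.99). Rela was followed most closely by Skap2, an adaptor of leukocytes, over 12 (0.98) and over 11 libraries (0.90), and Nfkbie by Tmem173, the nucleic acid sensor adaptor STING, over both (0.98 and 0.90). For 8 members, Tnfaip3 among them, the nearest gene differed between the sets of libraries. Each nearest gene has the highest r of all tested genes outside the members. Over 11 libraries these highest values ran from 0.87 (Ikbkb with Polr3a) to 0.95 (Nfkb1 with Adra1d). Other nearest genes over 12 libraries were Dnajc10 for Relb, Arfgap3 for Nfkb2, Cdk4 for Nfkbia and Id3 for Chuk.

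The rest of the pathway was examined in lists that hold no member. Of 46 other core components, 8 were lower and 3 higher at an unadjusted p under 0.05 after DOX in A17fl/fl hearts, where 10.7% of tested genes passed, and 3 and 4 without replicate 1 (10.2%). In A17α-MHCKO hearts 3 were higher and 0 lower, near the share of all tested genes (6.42%). Between the genotypes after saline 8 were lower and 2 higher (10.1% of tested genes), and 3 and 3 without replicate 1 (10.2%). Between the genotypes after DOX 1 was lower, near the 2.7% of tested genes. For the interaction 2 were higher and 1 lower, against 5.99%, and 2 and 2 without replicate 1, against 7.13%. By edgeR 0 of these components had an adjusted p under 0.05, and by DESeq2 1, Tab1 after DOX in A17fl/fl hearts, where DESeq2 called 151 genes in all. Map3k14, the NIK kinase that starts the noncanonical arm, separated the same hearts as the Nfkb2 to Nfkb1 ratio. It measured 11.5, 9.93 and 10.5 CPM in A17fl/fl + NS, 8.30, 7.08 and 7.40 CPM in A17fl/fl + DOX, 8.09, 7.21 and 7.61 CPM in A17α-MHCKO + NS and 8.12, 7.93 and 7.17 CPM in A17α-MHCKO + DOX hearts. The 3 A17fl/fl + NS hearts were above the other 9. A17fl/fl + NS did not overlap with A17fl/fl + DOX for 13.3% and with A17α-MHCKO + NS for 10.9% of tested genes. The share that sets these 3 hearts apart from all 9 others was not taken. Map3k14 was among the 3 genes of smallest p of this list, and a link between it and the ratio was not tested. Its log2 fold change after DOX in A17fl/fl mice was -0.49 (SE 0.15, unadjusted p = 0.00656, adjusted p = 0.358 by edgeR), and -0.43 (SE 0.15, unadjusted p = 0.0159) without replicate 1. Traf3, the adaptor that keeps NIK low, was higher in all 3 A17fl/fl + DOX hearts (20.7 to 25.1 CPM) than in A17fl/fl + NS hearts (9.65 to 12.1 CPM). These groups did not overlap for 13.3% of tested genes, and Traf3 was also among the 3 genes of smallest p. Its log2 fold change was 1.07 (SE 0.29, unadjusted p = 0.00310, adjusted p = 0.334, edgeR), and 1.16 (SE 0.32) without replicate 1. In A17α-MHCKO hearts it was at 19.1, 13.8 and 8.31 CPM after saline and at 13.2, 9.68 and 17.9 CPM after DOX, which overlap. Its interaction was -1.09 (SE 0.40, unadjusted p = 0.0198, adjusted p = 0.828, edgeR), and after DOX it was lower in the knockout by a log2 difference of -0.74 (SE 0.28, unadjusted p = 0.0238, adjusted p = 1.0 by edgeR). Tab1, an activator of the TAK1 kinase upstream of IKKβ, was at 21.4 to 31.3 CPM after DOX against 12.7 to 17.4 CPM after saline in A17fl/fl hearts, with a log2 fold change of 0.73 (SE 0.18, unadjusted p = 0.00193 by edgeR), and 0.60 (SE 0.18) without replicate 1. It was at 19.8 to 25.4 CPM in A17α-MHCKO + NS and at 22.9 to 29.6 CPM in A17α-MHCKO + DOX hearts. The 3 A17fl/fl + NS hearts were thus below the other 9 for Tab1, as they were above them for Map3k14. The shares of tested genes given there apply here too, and Tab1 was also among the 3 genes of smallest p. Its log2 difference between the genotypes after saline was 0.53 (SE 0.18, unadjusted p = 0.0135, edgeR), and 0.40 (SE 0.18) without replicate 1.

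Among 11 canonical receptors and adaptors, 6 were lower after DOX in A17fl/fl hearts at an unadjusted p under 0.05, against 10.7% of tested genes, with a list median of -0.92. Without replicate 1 the median was -0.08, with 1 lower and 1 higher, against 10.2%. Il1r1, the interleukin-1 receptor, was at 91.7 CPM in replicate 1 and at 28.4 and 26.0 CPM in the other saline hearts, against 21.8 to 22.6 CPM after DOX. Among 12 noncanonical receptors and ligands, of which 7 could be tested, 0 passed in A17fl/fl hearts by edgeR at an unadjusted p under 0.05, and 2 were higher after DOX without replicate 1, where 10.2% of tested genes passed. Tnfrsf12a, the TWEAK receptor, was the exception in A17α-MHCKO hearts, at 99.3, 65.6 and 65.5 CPM after DOX against 27.1, 33.2 and 31.9 CPM after saline. The groups did not overlap, which held for 16.9% of all tested genes. Its log2 fold change of 1.32 (SE 0.28) had an adjusted p of 0.646 with all libraries (edgeR). That adjusted p was 0.0622 when replicate 1 of A17fl/fl + NS was left out of the shared estimate of spread (edgeR). By DESeq2 Tnfrsf12a was the 1 gene of this list with an adjusted p under 0.05, of 41 genes in all in that comparison. In A17fl/fl hearts it was at 57.4 to 82.8 CPM after DOX, against 84.0, 42.4 and 40.4 CPM after saline.

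The canonical target genes were also high in replicate 1. There, 29 of 33 had their highest value of the 12 libraries (26 of the 30 tested, against 26.1% of all tested genes), with a median of 12.3 times the median of the other 11, whereas 2 of 7 noncanonical target genes were highest there, with a median of 0.90 times. Of the 30 canonical targets tested, 19 were lower after DOX in A17fl/fl hearts and 22 between the genotypes after saline at an unadjusted p under 0.05, with 0 higher, where 10.7% and 10.1% of tested genes passed. Without replicate 1 these counts became 0 lower and 5 higher, and 5 lower and 5 higher, with 10.2% of tested genes passing in both. In A17α-MHCKO hearts 2 were higher and 0 lower after DOX (6.42% of tested genes), and 7 and 1 with replicate 1 of A17fl/fl + NS left out of the fit (11.5%). For the interaction 10 were higher and 0 lower (5.99% of tested genes), and 2 were higher and 4 lower without replicate 1 (7.13%). By edgeR 0 had an adjusted p under 0.05 in any of these comparisons. DESeq2, with replicate 1 in the fit, called 1 (Lcn2) after DOX in A17fl/fl hearts, where it called 151 genes in all. Between the genotypes after saline it called 4 (Cxcl1, Ier3, Lcn2 and Zc3h12a), where it called 174 genes in all. Targets for which DESeq2 set no adjusted p count here as not called, and their number was not taken. Saa3, an acute-phase protein, was at 917 CPM in replicate 1 and at 0.19 to 1.63 CPM elsewhere, and Il1b, encoding interleukin-1β, at 428 CPM against 0.68 to 2.15 CPM. Cxcl1, a neutrophil chemokine, was at 64.5 CPM in replicate 1, at 1.56 and 3.51 CPM in the other A17fl/fl + NS hearts and at 0.37, 0.91 and 1.16 CPM in A17α-MHCKO + NS hearts. Without replicate 1 its log2 difference between the genotypes after saline was -1.62 (SE 0.53, unadjusted p = 0.0103, adjusted p = 0.332 by edgeR). Of the noncanonical targets, the chemokine Cxcl12 was at 225 to 422 CPM in A17fl/fl + NS hearts and at 189 to 200 CPM in A17α-MHCKO + NS hearts. These groups did not overlap for Cxcl12 or Cxcl1, which held for 10.9% of all tested genes. The log2 difference of Cxcl12 was -0.80 (SE 0.22, unadjusted p = 0.00378, adjusted p = 0.316 by edgeR) and -0.74 (SE 0.23, unadjusted p = 0.00934, edgeR) without replicate 1.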

How the data were processed

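The authors deposited 1 table of 53465 genes with a raw count per gene and library and an FPKM value per gene and library. According to the study's methods, stranded paired-end mRNA libraries were counted with StringTie and normalized by TMM. The submitters' processing notes name CASAVA 1.8, HISAT2, SAMtools 1.3.1, edgeR and GRCm39, without their roles. No counting strand setting or annotation release is given in the sources used here, so overlapping and antisense genes may share reads. Promoter windows came from RefSeq on another build, GRCm38.p6, and were joined by symbol only.

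Deposited counts were fitted in R 4.3.3 with edgeR 4.0.16 (filterByExpr, TMM, glmQLFit and glmQLFTest, 1 mean for each of 4 groups over 12 libraries), with Benjamini-Hochberg adjustment over 16101 genes. The SE of a log2 fold change was taken as its size over the root of the F statistic. The common dispersion was 0.0842. Deposited FPKM served only for levels between genes and for ratios. The exact permutation tests were two-sided and run with SciPy 1.17.1. The steps were tested on simulated data.

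The members, the lists and the alternatives were chosen with earlier results of these data known. The text names all members and, by rule, genes from the 3 of smallest p per list and comparison and from the nearest genes of the members. Not all that the rule allows are named, and which of them to name was chosen after their values were seen, as were Col3a1, Dcn, S100a9 and Zc3h12a. Alternatives were DESeq2 1.42.0, RLE and upper-quartile factors, no filter, at least 10 counts in every library, the groups compared alone, a replicate block and each library left out. Nothing states that replicates were independent beyond their being separate mice, so p-values measure the spread between these mice. No 2 libraries of a group agreed within sampling noise.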

Additional observations from a re-analysis of the deposited data

How the results depend on the processing

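The count of members with an unadjusted p under 0.05 moved by over 1.5 times for 3 comparisons, as follows. For the interaction it was 1 in place of 2 with upper-quartile factors, with 10 counts in every library and with the replicate block. Between the genotypes after saline it was 5 in place of 3 without a filter and with DESeq2, and, within 1.5 times, 4 with RLE factors and 2 with upper-quartile factors or these groups alone. After DOX in A17fl/fl mice it was 1 in place of 3 when these groups were fitted alone, and 4 without a filter and with DESeq2. The interaction gave 3 without a filter. Leaving out each library gave 1 to 7 members after DOX in A17fl/fl mice, 1 to 6 between the genotypes after saline and 0 to 4 for the interaction. Without A17fl/fl + NS replicate 1 each of the 3 counts was 1. Without replicate 2 of that group they were 6, 6 and 4, and without replicate 3 the first were 7 and 5. For the interaction the count was 0 without A17fl/fl + DOX replicate 1 or 3, A17α-MHCKO + NS replicate 2 or 3, or A17α-MHCKO + DOX replicate 2. Without A17fl/fl + NS replicate 2, Tnfaip3 and Bcl3 had an adjusted p of 0.0477 each after DOX in A17fl/fl mice (edgeR). Between the genotypes after saline it was 0.0411 and 0.0207 in that fit (edgeR). There the A17fl/fl + NS group was replicate 1, at 134 CPM for Tnfaip3 and 49.5 CPM for Bcl3, and replicate 3, at 8.77 and 13.8 CPM. For fits that leave out any library but A17fl/fl + NS replicate 1, the share of all tested genes that passed was not taken. The differences between the arms moved by less than 0.34, their SD within groups with all libraries, but that SD rests on A17fl/fl + NS replicate 1. Against the 0.16 without it, the move was larger without replicate 1 after DOX in A17fl/fl mice (-0.30 to -0.017) and for the interaction (0.52 to 0.21), without A17α-MHCKO + NS replicate 1 between the genotypes after saline (-0.29 to -0.53), and without replicate 2 of that group in the same comparison (to -0.073) and for the interaction (to 0.30).

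The interaction of Nfkb1, 0.00071, was -0.001179 with RLE factors, -0.049897 with upper-quartile factors, -0.018537 without a filter, -0.021954 with 10 counts in every library, -0.027098 with the replicate block and -0.001171 with DESeq2. After DOX in A17α-MHCKO mice Rela was -0.002677 with 10 counts in every library, and Tnfaip3 was 0.019142 with the replicate block. Leaving out each library moved the following log2 values through 0. One of these was Nfkbie for the interaction, 1.32 with all libraries and -0.079 without A17fl/fl + NS replicate 1. After DOX in A17fl/fl mice Nfkb1 ran from -0.30 to 0.33 and Chuk from -0.055 to 0.090. After DOX in A17α-MHCKO mice Rela ran from -0.028 to 0.036, Relb from -0.29 to 0.072, Nfkb2 from -0.19 to 0.13, Nfkbia from -0.087 to 0.27, Nfkbie from -0.39 to 0.51, Tnfaip3 from -0.46 to 0.11, Bcl3 from -0.055 to 0.26, Chuk from -0.16 to 0.045 and Ikbkb from -0.016 to 0.28. For the genotypes after saline Relb ran from -0.53 to 0.013, Nfkb1 from -0.37 to 0.26 and Chuk from -0.041 to 0.17. For the genotypes after DOX Rela ran from -0.035 to 0.052, Relb from -0.10 to 0.051, Nfkb2 from -0.23 to 0.096, Nfkbie from -0.23 to 0.026, Tnfaip3 from -0.30 to 0.31, Chuk from -0.051 to 0.040 and Ikbkb from -0.041 to 0.25. For the interaction Relb ran from -0.027 to 0.51, Nfkb1 from -0.44 to 0.19, Nfkbie from -0.079 to 1.91 and Chuk from -0.18 to 0.033.

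Among 18 pairs of same-numbered hearts, deviations from the group means correlated between -0.10 and 0.22 (median 0.004), and 3 were above 0.1. Among 36 pairs with different numbers they ran from -0.26 to 0.32 (median -0.013), and 4 were above 0.1. These values cannot settle whether replicate numbers pair the mice. The cause of the changes was not tested. The lowest member value, of Nfkbie, rested on 35 counts, so that counting error weighs more there than for Nfkbia, with at least 724 counts.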

Other observations

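Among the pathway genes named by the smallest p, Nkiras2, encoding κB-Ras2, a small GTPase that binds IκB, differed among saline hearts of 1 genotype. It was at 47.4, 19.4 and 13.3 CPM in A17α-MHCKO + NS hearts, at 63.7, 61.2 and 52.8 CPM in A17α-MHCKO + DOX hearts and between 45.8 and 59.6 CPM in the 6 A17fl/fl hearts. The log2 fold change after DOX in A17α-MHCKO mice was 1.15 (SE 0.36, unadjusted p = 0.00769, adjusted p = 0.705 by edgeR). Nfkbiz, encoding the nuclear IκBζ, ranged from 5.19 to 9.84 CPM in 11 hearts and stood at 91.9 CPM in the first A17fl/fl + NS heart. Ier3, an immediate-early NF-κB target, was at 381, 30.7 and 62.0 CPM in A17fl/fl + NS hearts, at 18.03, 24.4 and 26.9 CPM in A17α-MHCKO + NS hearts and between 29.8 and 52.9 CPM after DOX. Without replicate 1, the difference between the genotypes in its response to DOX was 1.24 on the log2 scale (SE 0.41, unadjusted p = 0.0110, adjusted p = 0.560 by edgeR).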
